A study of Mus musculus with 2 samples.

Results

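The AP-1 genes encode the subunits of a dimeric transcription factor: the Fos proteins (Fos, Fosb, Fosl1, Fosl2), the Jun proteins (Jun, Junb, Jund) and the related factors Atf3, Batf and Maff. The 10 genes were taken by name out of 21887 protein-coding genes, and every H4K16ac peak overlapping a gene or the 50 kb on either side of it was collected. This gave 94 of 58229 peaks in the wild-type list and 79 of 55149 in the KAT8-cKO list. H4K16ac, histone H4 acetylated at lysine 16, was mapped by CUT&Tag, where an antibody guides a transposase to insert sequencing adapters next to the modified histone. The cells were primary mouse bone marrow-derived macrophages, grown with M-CSF at 20 ng/ml and stimulated for 2 h with R848 at 100 ng/ml, an agonist of the endosomal receptor TLR7. One group had the genotype WT and the other KAT8-cKO, labelled as deficient in KAT8, the acetyltransferase that places most H4K16ac, with 1 library per genotype and the same stimulation in both. No unstimulated library was analysed here. The sources used here do not give the Cre driver, the strain, the age or the number of mice.

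AP-1 factors bind DNA as pairs of basic leucine zipper (bZIP) proteins, and the pairing decides which sites are bound. In macrophages several AP-1 genes are immediate early genes: signals from Toll-like receptors pass through MAP kinases to factors already on their promoters, and transcription starts within minutes and then fades. H4K16ac weakens the packing of nucleosomes and is found at active promoters and enhancers and along some gene bodies.

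With 1 library per genotype, no difference below could be set against variation between animals or preparations, and no p-value was computed. The fold and the −log10 q of a peak are the authors' peak caller's own values. The height of a peak, the number of tags stacked at its summit, was worked out from the deposited fold and p-value. Intervals are 95% intervals for counting error alone, and tags amplified by PCR are not independent molecules. In a bulk assay, fewer cells carrying the mark and less of the mark per cell cannot be told apart. The sources used here do not state the number of reads. Of 12 macrophage marker genes, 10 had a peak within 1 kb of an end in wild type and 6 in KAT8-cKO, with 5 genes common to both; of all protein-coding genes, 46.8% and 43.3% had one, so the KAT8-cKO count is near the background. None of 4 B cell markers had such a peak, against 2 of 4 T cell markers and 1 of 4 neutrophil markers in wild type. The macrophage gene Lyz2 had none in either list.

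Where the AP-1 genes had end peaks, the folds were low to middling, apart from Fosl2 in KAT8-cKO, which was above the middle. With all deposited peaks no gene was marked in KAT8-cKO alone. Both lists had a peak within 1 kb of a gene end at 5 genes (Fos, Fosl1, Fosl2, Jun and Batf), wild type alone had one at 3 (Junb, Jund and Maff), and Fosb and Atf3 had none. Over all protein-coding genes, 35.8% had an end peak in each of the lists, 11.1% in wild type only, 7.52% in KAT8-cKO only and 45.7% in neither. With q-values under 0.05 alone, 2 genes were marked in both, 3 in wild type alone (Fos, Junb and Jund) and 2 in KAT8-cKO alone (Fosl1 and Fosl2). With end windows of 3 kb, 8 were marked in both, 1 in wild type alone and 1 in KAT8-cKO alone. The shares over all genes given above are for all deposited peaks and windows of 1 kb. Among 10 genes, counts of 5 and 3 are read as no result about the members beside these shares. At Junb and Maff, KAT8-cKO peaks lay a short way beyond the window, and Jund was the remaining wild-type-only gene. The median fold of the strongest end peak was 2.78 in wild type and 2.99 in KAT8-cKO for the AP-1 genes, against 3.42 and 3.12 for all genes with such a peak. Of all genes with such a peak, 3.01% (Maff) to 54.6% (Jun) had a lower value in wild type, and 13.7% (Fos) to 67.4% (Fosl2) in KAT8-cKO. For the 9 members whose start is listed, both lists had a peak within 1 kb of a start at 5 genes (Fos, Fosl2, Jun, Batf and Maff), wild type alone at Junb and Jund, and neither list at Fosb and Atf3. Of 17492 genes with a listed start, 36.4% had such a peak in each list.

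**Figure D1:**
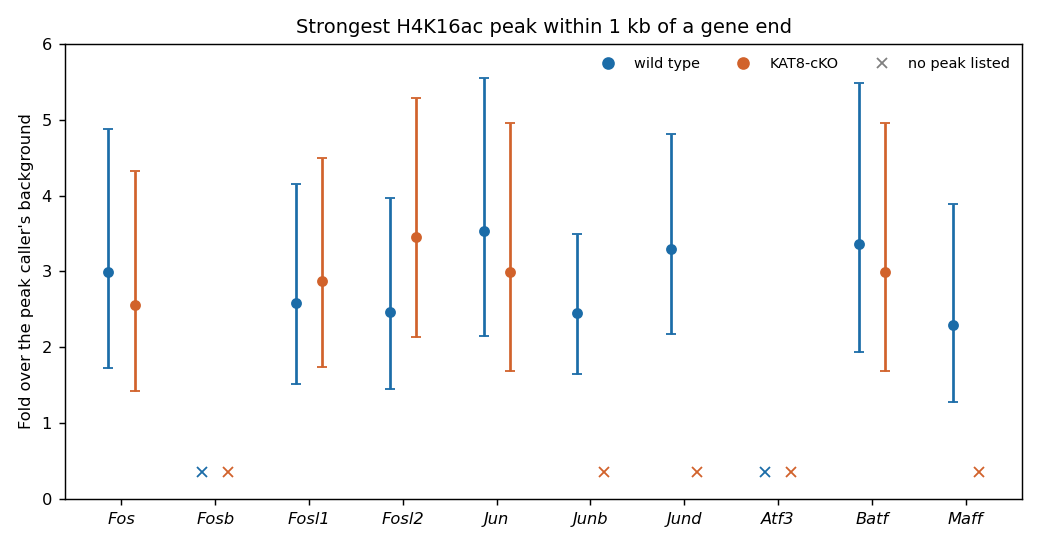
Fold over the peak caller's background of the strongest H4K16ac peak within 1 kb of either end of each AP-1 gene, in wild type and KAT8-cKO (1 library each). Bars are 95% counting intervals and crosses mark a list with no such peak; the intervals of both lists overlap at every gene with a peak in both.

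At 4 promoters the sequence itself was overlapped by a peak, and these are shown so that the known kinds of promoter element in each can be read. Each runs from 250 bases before to 50 bases after a transcription start, 5′ to 3′ on the gene's strand, as given by RefSeq for GRCm38.p6, the assembly behind mm10. Capitals mark matches, on either strand, to the CRE half-site TGACG, the GC box GGGCGG, the TATA box TATAAA, the variant AP-1 site TGACATCA, or the NF-κB site. The Fos (chr12:85473640-85473939, plus strand), Jun (chr4:95052173-95052472, minus strand) and the third Maff promoter (chr15:79348152-79348451, plus strand) were overlapped by peaks of both lists. The Batf promoter (chr12:85686470-85686769, plus strand) was overlapped in wild type, and the KAT8-cKO peak began downstream of it. The wild-type Batf peak began only at chr12:85686697. The marked CRE half-site (−98 to −94 from the start) and GC box (−90 to −85) of Batf thus lay outside the peaks of both lists.
Fos: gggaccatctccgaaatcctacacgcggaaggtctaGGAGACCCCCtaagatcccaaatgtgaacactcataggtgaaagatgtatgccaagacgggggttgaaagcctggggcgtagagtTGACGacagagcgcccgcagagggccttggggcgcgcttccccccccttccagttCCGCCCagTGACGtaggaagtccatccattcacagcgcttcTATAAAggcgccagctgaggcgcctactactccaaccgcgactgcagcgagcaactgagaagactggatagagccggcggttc
Jun: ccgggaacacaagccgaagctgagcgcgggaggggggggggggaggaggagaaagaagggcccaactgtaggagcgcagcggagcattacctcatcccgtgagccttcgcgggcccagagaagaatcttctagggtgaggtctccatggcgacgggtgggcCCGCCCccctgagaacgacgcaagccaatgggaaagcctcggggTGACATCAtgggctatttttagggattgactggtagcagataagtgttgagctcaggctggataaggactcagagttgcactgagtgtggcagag
Batf: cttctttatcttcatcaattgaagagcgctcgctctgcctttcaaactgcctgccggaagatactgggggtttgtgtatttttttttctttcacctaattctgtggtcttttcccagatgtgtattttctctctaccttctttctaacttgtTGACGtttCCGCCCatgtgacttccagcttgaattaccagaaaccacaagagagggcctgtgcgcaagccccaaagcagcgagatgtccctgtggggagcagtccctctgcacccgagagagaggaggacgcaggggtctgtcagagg
Maff: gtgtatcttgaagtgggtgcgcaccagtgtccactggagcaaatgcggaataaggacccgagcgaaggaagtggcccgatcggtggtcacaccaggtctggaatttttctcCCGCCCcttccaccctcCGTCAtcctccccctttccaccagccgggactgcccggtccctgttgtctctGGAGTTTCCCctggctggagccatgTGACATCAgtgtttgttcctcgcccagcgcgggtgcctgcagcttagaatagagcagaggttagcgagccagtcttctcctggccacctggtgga
In Fos the matches were the CRE half-site at −129 to −125 and at −66 to −62 from the start, the GC box at −74 to −69, the TATA box at −33 to −28 and the NF-κB site at −214 to −205. Jun and the third Maff promoter both held the variant AP-1 site at −45 to −38, a letter string present in 3.62% of 32851 promoters of the same length. Among all promoters, the CRE half-site was present in 20.8%, the GC box in 35.7%, the TATA box in 13.6% and the NF-κB site in 4.51%. The canonical AP-1 site TGANTCA, present in 7.81% of promoters, and the CArG box, present in 1.63%, matched in none of the 11 listed promoters of 9 members. Only the 250 bases before and 50 after each start were searched, so a site farther out, at Fos or elsewhere, would be missed. The full CRE TGACGTCA (1.79% of promoters, and containing the half-site) matched only in the second Maff promoter, at −29 to −22. These are matches of letters and not bound sites. The 11 promoters had a GC content of 46.7% to 68.3%, against a median of 62.3% for the 8911 promoters overlapped by a wild-type peak and 49.7% for the others.

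Fos (chr12:85473890-85477274), the founding immediate early gene of the family, carried a peak over its start in both lists. The fold was 2.99 in wild type (−log10 q 1.67, height 14 tags, interval 7.65 to 23.5) and 2.56 in KAT8-cKO (−log10 q 0.772, 12 tags, 6.2 to 21.0). Wild type was the higher list, by less than the counting error, and only the wild-type peak had a q-value under 0.05. The flanks gave both directions. At 18586 bp upstream of the start the fold was 3.88 in wild type (−log10 q 4.18) and 3.28 in KAT8-cKO (2.37). At 12330 bp downstream it was 2.57 (1.24) in wild type and 3.60 (3.48) in KAT8-cKO, the strongest KAT8-cKO peak of the window. The height there was 16 tags in wild type and 19 in KAT8-cKO. Another flank pair, 40439 bp downstream, was weak in both lists (2.44 and 2.59), with summits 4 bp apart. In all, 4 of 8 wild-type and 4 of 7 KAT8-cKO peaks overlapped the other list, and no other protein-coding gene lies in this window.

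Fosb (chr7:19302696-19310118), another inducible Fos protein, had no peak at either end in either list. Each list held 1 peak inside the gene, at different places: 5991 bp from the start in wild type with a fold of 2.63 (−log10 q 1.05), and 2598 bp from it in KAT8-cKO with a fold of 3.45 (2.99). Neither overlapped the other list. In the flanks 4 pairs overlapped, with folds of 2.44 to 3.16 in wild type and 2.44 to 3.12 in KAT8-cKO, among them peaks in and at an end of Vasp, which encodes an actin regulator.

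Fosl1 (chr19:5447698-5455938), which encodes Fra-1, had an end peak in both lists that did not overlap each other. The wild-type peak lay 205 bp beyond the upper coordinate with a fold of 2.58 (−log10 q 1.18, 15 tags). The KAT8-cKO peak lay just inside the gene with a fold of 2.87 (1.80, 17 tags). Both lay within Ccdc85b, which overlaps this end, so neither can be assigned to Fosl1 alone, and the strand of Fosl1 is not given in the table used. The strongest wild-type peak of any AP-1 window by −log10 q was in this flank, beside Mus81, which encodes a DNA repair endonuclease. It had a fold of 4.10 (−log10 q 7.66, 31 tags, 21.1 to 44.0) in wild type and 2.83 (1.87, 18 tags, 10.7 to 28.4) in KAT8-cKO. The wild-type peak was higher there, and the intervals overlapped. With 11 other protein-coding genes, this was the most gene-dense of the 10 windows.

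Fosl2 (chr5:32136472-32157840), which encodes Fra-2, had a peak just upstream of its start in both lists, and KAT8-cKO had the higher fold. The values were 2.47 in wild type (−log10 q 1.01, 15 tags, 8.4 to 24.7) and 3.45 in KAT8-cKO (3.18, 19 tags, 11.4 to 29.7). The summits lay 842 and 595 bp upstream of the start. The order was the opposite 55641 bp downstream of the start, with 3.41 (3.46) in wild type and 2.37 (0.603) in KAT8-cKO. Inside the gene, 2 wild-type and 2 KAT8-cKO peaks had folds of 2.11 to 2.47 and none overlapped.

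Jun (chr4:95049036-95052222), the partner of most Fos proteins, had the highest end-peak fold of the 10 genes in wild type. Its fold was 3.54 in wild type (−log10 q 3.14, 17 tags, 9.9 to 27.2) and 2.99 in KAT8-cKO (1.41, 13 tags, 6.92 to 22.2). The wild-type peak was 1424 bp wide with its summit 1020 bp upstream of the start, and the KAT8-cKO peak was 272 bp wide with its summit 156 bp upstream. The window was sparse, with 4 wild-type and 3 KAT8-cKO peaks and no other protein-coding gene.

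Junb (chr8:84976909-84978748), which encodes a Jun protein that often opposes Jun, had the opposite surroundings: 15 wild-type peaks, the most of any window, and 9 KAT8-cKO peaks. The wild-type end peaks had folds of 2.45 on the start side (−log10 q 2.27, 28 tags, 18.6 to 40.5) and 2.32 at the 3′ end (1.18, 20 tags). The start-side peak was overlapped by a KAT8-cKO peak that began 1218 bp from the gene and so lay outside the window, with a fold of 3.10 (4.15, 29 tags, 19.4 to 41.6). Junb is therefore not a gene without a KAT8-cKO peak. Within 10 kb upstream of the start, 3 further wild-type peaks of 22 to 25 tags had no KAT8-cKO counterpart. Their folds were only 2.07 to 2.15 (−log10 q 0.936 to 1.19), and none had a q-value under 0.05. Of all wild-type peaks, 33.2% had a counterpart.

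Jund (chr8:70697739-70700616), the Jun gene that is expressed without stimulation, had an end peak in wild type alone. A peak of 904 bp, beginning 765 bp inside the gene, had a fold of 3.30 (−log10 q 4.16, 25 tags, 16.2 to 36.9). No KAT8-cKO peak overlapped it, and the nearest one in the downstream direction began 8600 bp past the gene. With end windows of 500 bp it was no longer an end peak, and Junb was then the one gene marked in wild type alone. An unlisted peak is not a height of 0, since even at the genome background a KAT8-cKO peak needed at least 9 tags. The local background of the wild-type peak was 6.88 tags, against a lowest of 3.09 in that list, and the KAT8-cKO value there is not known. Elsewhere in this window, KAT8-cKO peaks were listed with 14 tags at local backgrounds of 5.32 and 6.12, and with 20 tags at 5.94. In the flank, peaks at the ends of Lsm4 (an RNA-binding protein gene) and Pgpep1 (a peptidase gene) were listed in both. The folds at Lsm4 were 4.07 in wild type (6.28, 26 tags, 17.0 to 38.1) and 2.86 in KAT8-cKO (1.88, 18 tags, 10.7 to 28.4). At Pgpep1 they were 3.84 (5.72, 26 tags) and 2.94 (1.79, 16 tags). Inside Pgpep1, 48766 bp upstream of Jund, KAT8-cKO was the higher list, with 3.03 (2.50) against 2.02 (0.340).

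Atf3 (chr1:191170296-191183333), an inducible repressor of inflammatory genes, had no peak at an end or in its body in either list. The nearest KAT8-cKO peak lay 1584 bp upstream of the gene with a fold of 3.20 (−log10 q 1.87, 14 tags), and the nearest upstream wild-type peak lay 6375 bp away with 2.30 (0.512, 12 tags). A pair 41026 bp upstream had folds of 3.14 (2.09) in wild type and 3.41 (2.75) in KAT8-cKO. The highest fold of any wild-type window peak, 4.40 (4.64, 17 tags, 9.9 to 27.2), lay 44095 bp beyond the 3′ end and had no KAT8-cKO counterpart.

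Batf (chr12:85686720-85709087), which pairs with Jun proteins in immune cells, showed the closest match in position. At its start the summits were 166 bp downstream in wild type and 167 bp in KAT8-cKO, with folds of 3.36 (−log10 q 2.26, 14 tags) and 2.99 (1.41, 13 tags). The summits of a second pair, inside the gene 18840 bp from the start, lay 4 bp apart. The wild-type peak there was 939 bp wide with a fold of 3.44 (4.33, 24 tags, 15.4 to 35.7), and the KAT8-cKO peak was 764 bp wide with 2.79 (1.78, 18 tags, 10.7 to 28.4).

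Maff (chr15:79346621-79359078), a small Maf protein without an activation domain, has 3 listed starts. Its wild-type end peak, 107 bp past the second start, was weak (fold 2.30, −log10 q 0.525, 12 tags) and not overlapped. Over the third start both lists held a peak, with 2.76 (1.46, 15 tags) in wild type and 2.55 (1.37, 18 tags) in KAT8-cKO. The strongest KAT8-cKO peak of the 10 windows by −log10 q lay 11121 bp beyond the gene inside Tmem184b, with a fold of 3.53 (4.76, 26 tags, 17.0 to 38.1) and no wild-type counterpart. At 8074 bp upstream of the first start, the pair had 3.41 (3.07) in wild type and 2.73 (1.20) in KAT8-cKO.

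**Figure D2:**
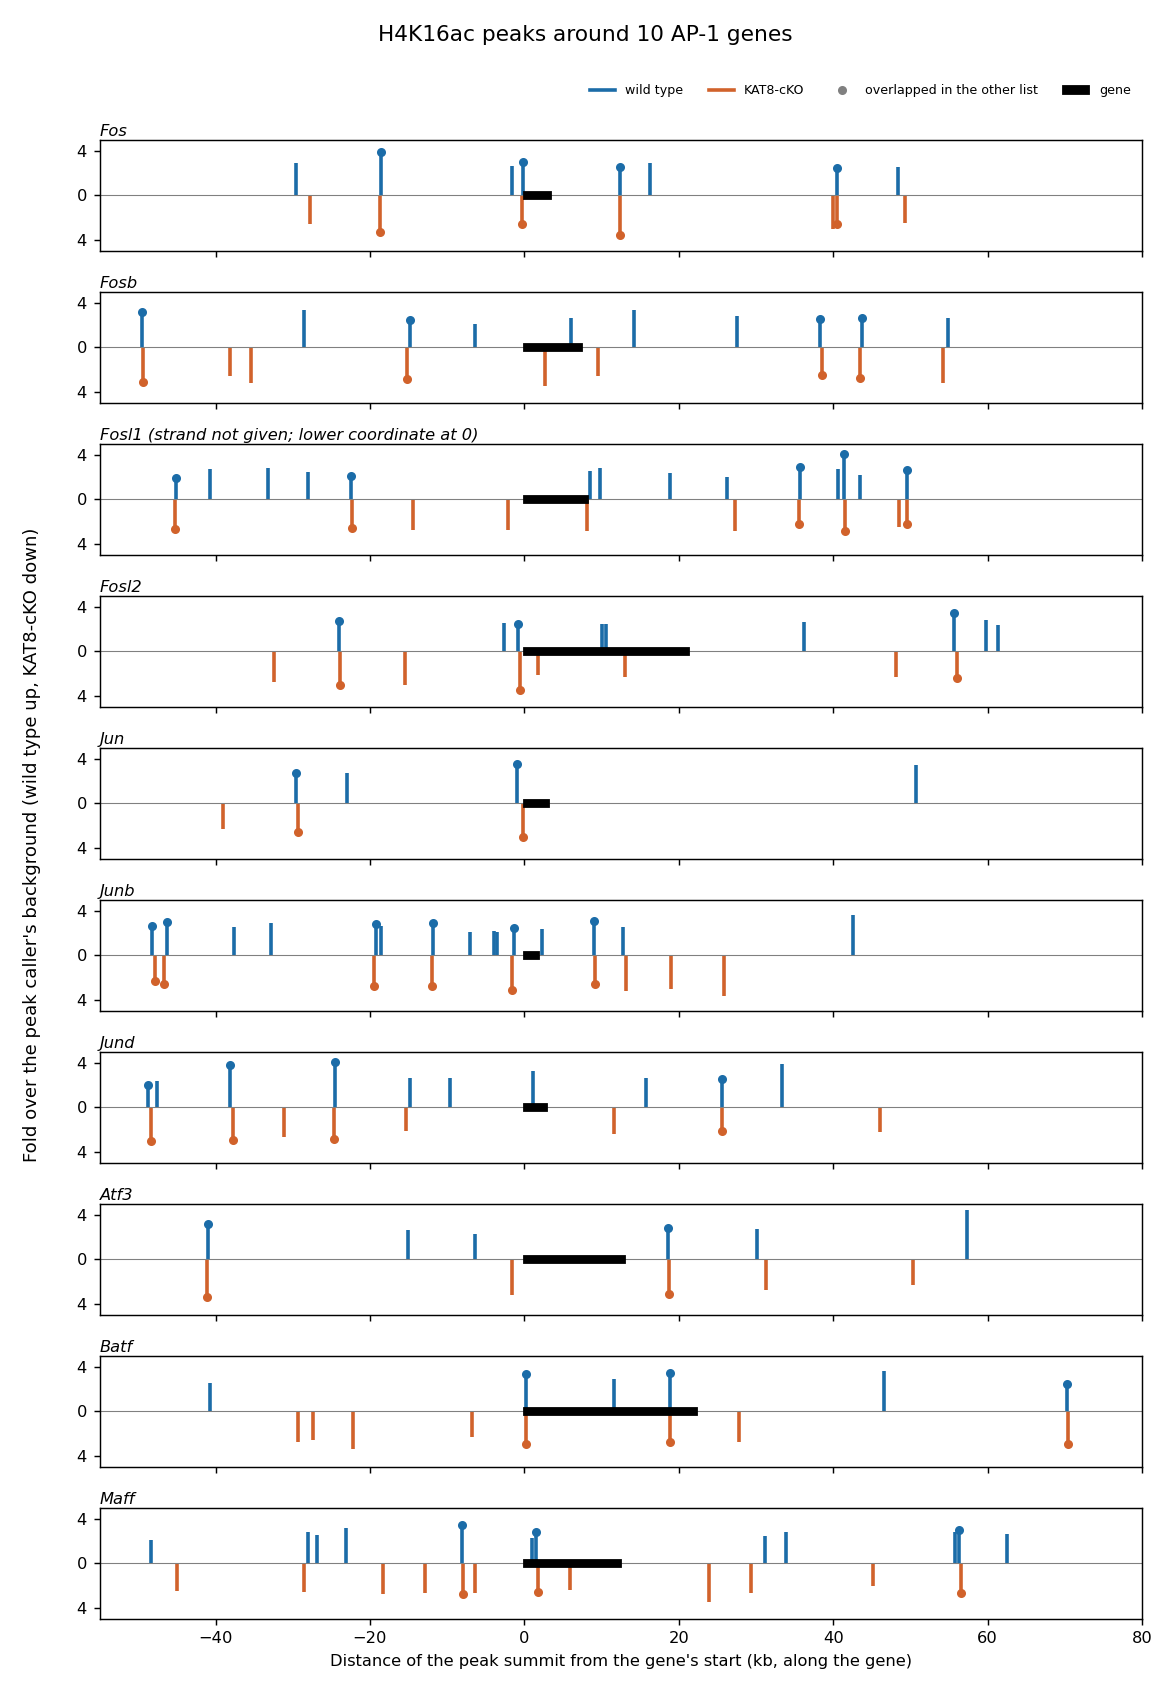
All 94 wild-type peaks (up) and 79 KAT8-cKO peaks (down) in the windows of the 10 AP-1 genes, by distance of the summit from the gene's start (from its lower coordinate for Fosl1, whose strand is not given) and by fold over the peak caller's background. Dots mark peaks overlapped in the other list and black bars the genes; Junb has 15 wild-type peaks and Jun 4.

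The windows held more peaks per length than those of most genes. The median was 8.52 peaks per 100 kb in wild type (3.88 to 14.7) and 7.27 in KAT8-cKO (2.91 to 10.7), against 4.19 and 3.77 over all genes, and 9 of 10 members were above the median of all genes in each list. The members are short, with a median length of 7832 bp against 17169 bp, and had a median of 2 other protein-coding genes in the window against 3. The part of gene length in the peak density was not tested. A q-value under 0.05 was reached by 45 of 94 window peaks in wild type (47.9%) and 37 of 79 in KAT8-cKO (46.8%), against 46.9% and 47.0% of all peaks. The median fold was 2.66 in wild type and 2.73 in KAT8-cKO, against 2.90 and 2.78 over all peaks. The median height was 15 tags in wild type and 14 in KAT8-cKO, against 12 and 13 over all peaks. The median width was 344 and 308 bp, against 296 and 285 bp. The median local background that divides the height was 4.78 and 4.50 tags, against 3.36 and 3.82. A −log10 q of 3 or more was reached by 11 wild-type peaks (11.7%, against 15.4% of all) and 4 KAT8-cKO peaks (5.06%, against 11.4%). A −log10 q of 5 or more was reached by 3 wild-type peaks (3.19%, against 7.12%) and 0 KAT8-cKO peaks (against 4.86%).

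Of the window peaks, 36 of 94 in wild type (38.3%, Wilson interval 29.1 to 48.4) and 36 of 79 in KAT8-cKO (45.6%, 35.0 to 56.5) overlapped a peak of the other list by at least 1 bp, against 33.2% and 35.6% of all peaks. The wild-type interval includes the share over all peaks, and so does the KAT8-cKO interval. Flank peaks at an end of another protein-coding gene overlapped in 14 of 21 cases in wild type (66.7%, 45.4 to 82.8), and flank peaks away from such ends in 15 of 58 (25.9%, 16.3 to 38.4). In KAT8-cKO the shares were 14 of 19 (73.7%, 51.2 to 88.2) and 16 of 49 (32.7%, 21.2 to 46.6). In each list the interval of the former lay wholly above that of the latter. The same split held over all peaks, with 60.7% at ends of protein-coding genes and 26.8% away from them in wild type, and 67.8% and 28.4% in KAT8-cKO. By class of −log10 q (under 1, 1 to 2, 2 to 3, and 3 or more), 8 of 28, 12 of 39, 8 of 16 and 8 of 11 wild-type peaks overlapped, the lowest share being 28.6% and the highest 72.7%, beside 16.6%, 26.0%, 42.4% and 80.2% of all peaks. In KAT8-cKO the shares were 37.5%, 47.6%, 44.4% and 75.0%, beside 19.9%, 31.0%, 51.8% and 85.7%. The KAT8-cKO intervals of the weaker classes, 21.2 to 57.3 under 1 and 33.4 to 62.3 from 1 to 2, lay narrowly above the shares of all peaks. The matching wild-type intervals, 15.3 to 47.1 and 18.6 to 46.4, included those shares. So did the intervals of the stronger classes in both lists.

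**Figure D3:**
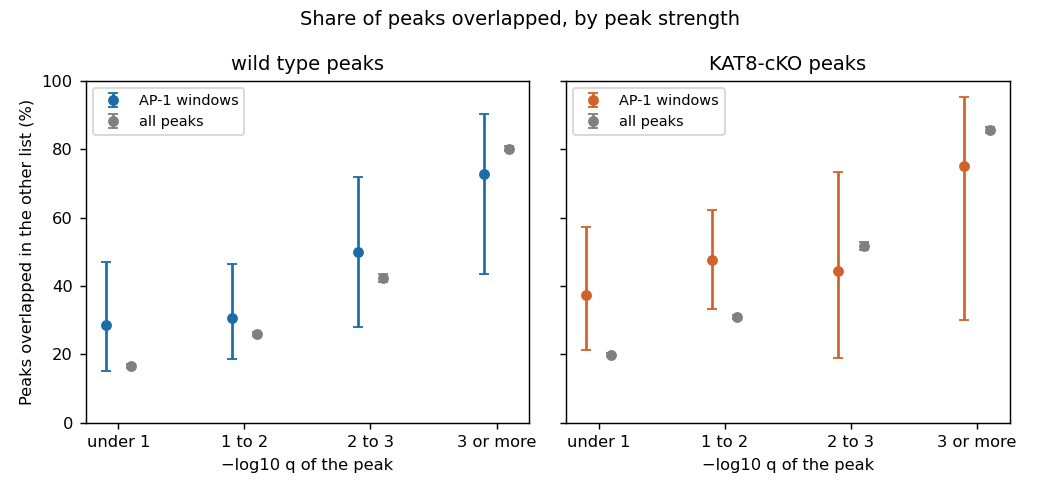
Share of peaks overlapped in the other list by class of −log10 q, for AP-1 window peaks (coloured) and all peaks (grey), with 95% Wilson intervals. In wild type the AP-1 share runs from 28.6% in the weakest class to 72.7% in the strongest.

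The counting intervals of the fold did not separate any of the 36 overlapping pairs. At heights of 9 to 31 tags these intervals are wide, and their overlap is not a test of equal fold. The fold was higher in wild type in 23 pairs and in KAT8-cKO in 13, where 61.6% of all 20046 overlapping pairs were higher in wild type. The median log2 ratio of KAT8-cKO to wild type was −0.10 in the windows and −0.09 over all pairs, and the counting intervals of the fold overlapped in all 36. Summits lay within 10 bp of each other in 4 pairs, 2 of them at Batf, against 8.56% of all pairs.

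**Figure D4:**
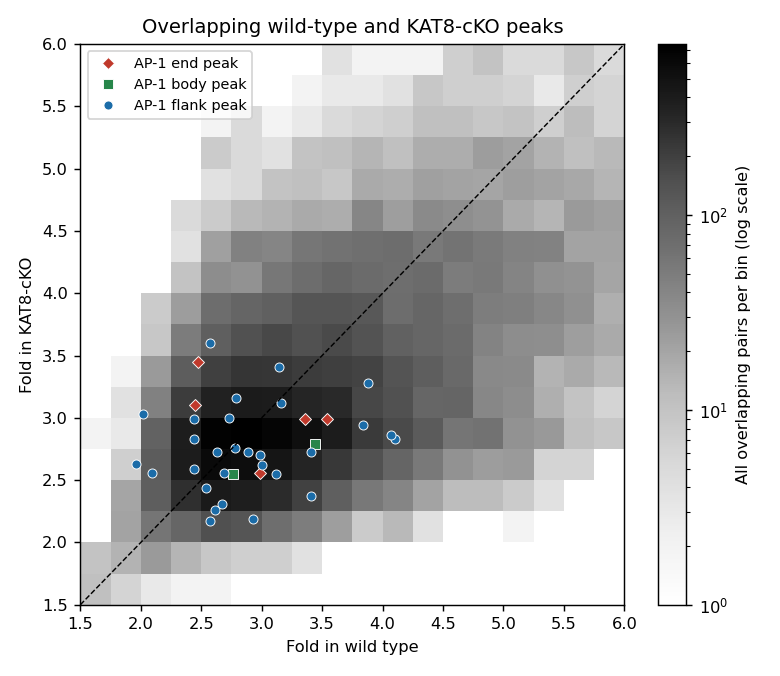
Fold in KAT8-cKO against fold in wild type for overlapping pairs of peaks, with the 36 pairs of the AP-1 windows in colour by position and all 20046 pairs as grey bins (log colour scale). The AP-1 pairs lie on both sides of the dashed line of equal fold, 23 below it and 13 above.

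Relative to the genome background of each list, the broader level of tags around these peaks was mostly lower in KAT8-cKO; without that division it was not. The fold divides the height by a local background, and for 100% of peaks above the genome background in both lists that value fell on steps of 0.02 tags, the step that arises when every tag within 10 kb is counted once and scaled to a 200 bp fragment. It was therefore read as the number of tags in the 10 kb around the summit, which is a count far larger than the height. This reading assumes a 200 bp fragment and no control library, which no source used here states. The genome background was 155 tags per 10 kb in wild type and 184 in KAT8-cKO, and each count was divided by its own list's value to give a density. Under this reading the genome background rises with the number of tags in a library, so the division scales for library size. Neither fold nor density can then show a change by the same factor across the whole genome. Of the 36 pairs, 32 were above the genome background in both lists. Before the division, KAT8-cKO had fewer tags in 16 of these 32 pairs, more in 15 and as many in 1, where 27.0% of all 12156 such pairs had fewer. The unscaled interval was separate and lower in 2 pairs (at Vasp and upstream of Junb), against 1.72% of all pairs. It was separate and higher in 1, against 8.44% of all pairs. After the division by backgrounds that differ by a ratio of 1.19, the density was lower in KAT8-cKO in 31 of the 32 pairs, where 76.1% of all pairs were lower. The direction for most pairs thus rests on this scaling. The median log2 ratio of the densities was −0.26 (−0.61 to 0.17) in the windows and −0.13 over all pairs. In 12 pairs, at 7 genes, the KAT8-cKO density interval lay wholly below that of wild type, against 12.8% of all pairs, and in 0 pairs wholly above. Relative to the median over all pairs, 30 of 32 were lower, beside 6078 of all 12156 pairs, a share that the median itself fixes. On this scale 6 of the 32 were separate and lower, at Fos, Fosb, Fosl1, Junb and Jund, and 0 separate and higher. Over all 12156 pairs these counts were 537 and 361. The 10 kb of 11 of the 32 pairs overlap those of another, so these pairs share tags.

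The largest density among the pairs was upstream of the start of Junb. Wild type held 543 tags in 10 kb, a density of 3.51 (3.22 to 3.82), and KAT8-cKO 434 tags, a density of 2.36 (2.14 to 2.59), a difference of −32.9%. The fold of the same peak was higher in KAT8-cKO, at nearly equal heights of 28 and 29 tags, since it was divided by the lower local value. The difference at Vasp in the Fosb window was −34.4%, from 2.48 (2.23 to 2.74) to 1.62 (1.44 to 1.82). At Pgpep1 in the Jund window it was −33.5%, from 1.95 (1.74 to 2.19) to 1.30 (1.14 to 1.47). At 12330 bp downstream of Fos, where the fold had been higher in KAT8-cKO, the difference in density was −31.9%, from 1.82 (1.61 to 2.04) to 1.24 (1.08 to 1.41). At Mus81 in the Fosl1 window it was −29.4%, with 340 tags in wild type and 286 in KAT8-cKO. At the starts, Fosl2 had 1.77 (1.57 to 1.99) and 1.30 (1.14 to 1.48), with separate intervals, and Fos 1.30 (1.13 to 1.49) and 1.11 (0.961 to 1.27), with overlapping ones. At the starts of Jun and Batf the KAT8-cKO value was at or below the genome background. The exception in direction was the third Maff start, with 1.55 (1.36 to 1.76) in wild type and 1.75 (1.56 to 1.95) in KAT8-cKO. Among pairs of similar mean density, from 1.5 to 2, the separate ones were 7 of 12 in the windows and 25.6% of all pairs. From 1.2 to 1.5 they were 3 of 15 and 12.6%. These counts describe the windows and do not set them apart from other regions. Density covers listed pairs alone, and a region without a peak in 1 list, such as the start of Jund, has no such value there.

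**Figure D5:**
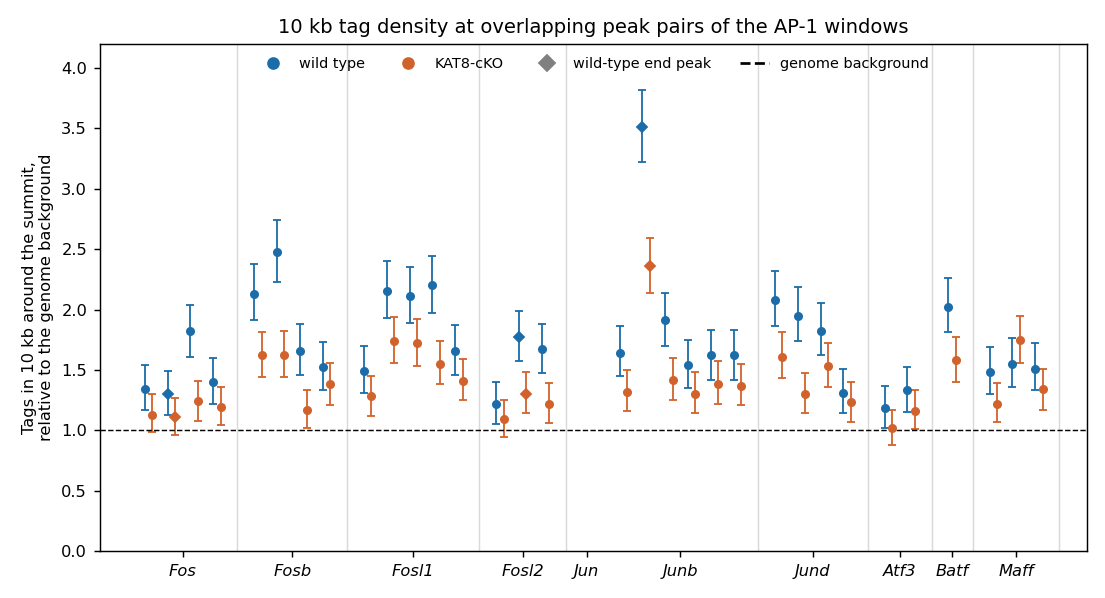
Tags in the 10 kb around the summit relative to the genome background of each list, for the 32 overlapping pairs above that background in both lists, grouped by AP-1 gene and ordered by coordinate. Bars are 95% Poisson intervals and diamonds wild-type end peaks; on this scale 31 pairs are lower in KAT8-cKO, against 16 by unscaled tags, and the Junb pair has 3.51 in wild type and 2.36 in KAT8-cKO.

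Beside 35.8% of all protein-coding genes with an end peak in each list, 11.1% in wild type alone and 7.52% in KAT8-cKO alone, the other lists of the pathway gave the following counts. Of 13 MAP kinase genes, which relay the receptor signal to AP-1, 11 had an end peak in each list and 2 (Mapk3 and Map2k6) in neither. The highest wild-type fold was at Mapk8, which encodes the Jun kinase JNK1, with 5.42 in wild type (−log10 q 8.01) and 4.48 in KAT8-cKO (5.41). Of 14 bZIP partner genes, 4 had an end peak in each list, Mafg had one in KAT8-cKO alone, and 3 had none. Those with an end peak in wild type alone included Batf2, Batf3, Atf4, Mafk and Cebpb. The folds of these 5 genes were 2.33 to 3.46, with Batf2 at the top, and Atf7, marked in both, had 6.46 (14.5) in wild type and 4.29 (5.57) in KAT8-cKO. Of serum response factor and its 5 cofactors, 3 had an end peak in each list, and Elk1 (3.66) and Elk4 (2.95) in wild type alone. Elk3 had 4.15 and 3.42, and Srf itself had no end peak. Of 12 genes known as AP-1 targets, 4 had an end peak in each list, Hmox1 (3.03, −log10 q 3.33), the heme oxygenase 1 gene, in wild type alone, and 7 had none. Ets2 had the highest wild-type fold among those in both, 3.40, and 3.98 in KAT8-cKO.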

How the data were processed

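H4K16ac CUT&Tag libraries of 1 WT and 1 KAT8-cKO macrophage culture were compared through the authors' deposited peak lists. Per the submitters' processing notes the build was mm10 and the tools MACS2 2.2.7.1, Bowtie 0.12.8 and DiffBind, with roles, settings, control and duplicate handling not given in the sources used here. In the authors' deposited lists each peak has a score, a fold (a ratio to the peak caller's background), a −log10 p-value, a −log10 q-value and a summit offset. Peaks were assigned with Python 3.11.15, numpy 2.4.6, pandas 2.3.3 and scipy 1.17.1 to RefSeq genes (GRCm38.p6) as end (within 1 kb of either end), body or flank (50 kb) peaks. Starts and promoters came from a RefSeq promoter table, which matched 9 of 10 members. Overlap was 1 bp or more.

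Heights were recovered by solving fold = (height + 1)/(background + 1) together with the Poisson p-value, which held for 99.9% of deposited peaks in each list and all peaks of the windows, at a tolerance of 0.001 in −log10 p. The formula is an inference from the values, since no source used here states it. It gave a lowest background of 3.09 tags in wild type and 3.68 in KAT8-cKO, so that 1 tag was worth 0.24 and 0.21 fold there. The height recovery, the 10 kb counts, their density and the motif TGACATCA were chosen after seeing the data. The overlap and recovery code was tested on simulated data.

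The members and gene lists were chosen with earlier results of these data known. All 10 members were named; of other lists, genes with an end peak in 1 list and the gene with the highest wild-type fold among those in both were named, and genes beside window peaks only for position. A gene that this rule takes is left out of the text. Mapk3, Map2k6, Srf and Lyz2 were named outside that rule, after their values were seen. Alternatives covered the peak threshold, the flank, the end window, the overlap and the scaling of density.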

Additional observations from a re-analysis of the deposited data

How the results depend on the processing

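Of 74 alternative values, 37 stayed within the counting error or 1.5 times the reported value and 37 did not. With q-values under 0.05 the windows held 45 wild-type and 37 KAT8-cKO peaks. End peaks then marked 5 genes in wild type and 4 in KAT8-cKO, with 2 in both lists, 3 in wild type only and 2 in KAT8-cKO only. At a −log10 q of 5 or more in both lists, 3 wild-type and 0 KAT8-cKO peaks were left, with a wild-type share overlapped of 0, end peaks at 0 genes in wild type, KAT8-cKO, both or wild type only, and body or flank peaks at 2 genes in wild type and 0 in KAT8-cKO. With the strongest 20000 peaks of each list there were 32 and 26 peaks, of which 28.1% and 34.6% overlapped, and end peaks at 5 wild-type and 2 KAT8-cKO genes, with 0 in both, 5 in wild type only and 2 in KAT8-cKO only. Flanks of 10 kb gave 29 and 23 peaks and flanks of 100 kb 167 and 146. Requiring overlap of 50% of the peak left 23.4% and 32.9% overlapped. End windows of 500 bp left 1 gene in wild type only; windows of 3 kb gave 9 KAT8-cKO genes, 8 in both, 1 in wild type only and 1 in KAT8-cKO only. Relative to the median over all pairs, an alternative chosen after seeing the data, 6 pairs had a separate, lower density interval in KAT8-cKO. With unscaled tags, likewise added, 16 of 32 pairs were lower in KAT8-cKO and 2 had a separate, lower interval. The split of genes between lists thus depended on the peak threshold and the window. Apart from the fewer peaks or wider windows each setting makes, the cause was not tested. Heights of 9 to 31 tags limited the precision. No paired analysis was possible because each genotype has 1 library, and for the same reason none could be left out.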
